A study of Mus musculus with 8 samples.

Results

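The genes described here are 48 mouse counterparts of autism risk genes that encode proteins other than the CHD-family chromatin remodelers. They were taken as a list of symbols, and all 48 matched a gene in the RefSeq table of the mouse build mm10, which holds 21887 protein-coding genes. By the role of their products they comprised 24 nuclear regulators (transcription factors, histone-modifying enzymes and their cofactors), 9 synaptic or channel genes, 7 genes of RNA-binding and translation control, and 8 genes of signalling, ubiquitin transfer and other cytoplasmic functions. Their median length was 86.6 kb, beside 17.2 kb for all protein-coding genes.

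Chromatin immunoprecipitation and sequencing (ChIP-seq) had been run on O4+ cells that were separated with magnetic beads from the cortex, with corpus callosum, of untreated wild-type mice at postnatal day 7. O4 marks the surface of the oligodendrocyte lineage, and the labels speak of oligodendrocyte precursor cells (OPCs). The groups were Chd7 ChIP (2 libraries), Chd8 ChIP (1 library, so without a replicate), mock ChIP with rabbit IgG (2 libraries) and input chromatin (3 libraries). The labels do not say whether the libraries came from separate animals or from pools of animals, and Chd7 replicate 2 and Chd8 had the same mock.

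Chd7 and Chd8 use ATP to move nucleosomes, and both are found at promoters and enhancers. CHD8 is itself one of the genes most often hit by new loss-of-function mutations in autism, and mutation of CHD7 causes CHARGE syndrome. In the oligodendrocyte lineage both remodelers are known to act in precursor survival and differentiation. A peak shows where a protein was enriched on DNA, not whether the gene is expressed.

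After removal of the few peaks that touched a mock peak, 18350 Chd8 peaks, 5218 peaks of the first Chd7 library and 6237 of the other were left, beside 89 and 98 mock peaks and 91628 to 178478 input peaks. A gene end means a peak within 1 kb of either annotated boundary of a gene, and a locus is the gene body with 10 kb on each side. A reproducible Chd7 region is the joined span of replicate 1 and replicate 2 peaks that overlap by at least 1 bp. Fold is the authors' value for each peak over the caller's background. It depends on each library's control and depth, so folds were ranked within a library and not compared between libraries. The depth of the libraries is unknown, and the intervals given are 95% Clopper-Pearson intervals over genes that cover counting error only. Among the marker lists, Chd8 lay at an end of 6 of 8 OPC genes (Bcan, Gpr17, Olig1, Olig2, Pdgfra and Sox10, but not Cspg4 or Ptprz1), 2 of 6 oligodendrocyte, 3 of 6 neuron, 2 of 6 astrocyte, 1 of 5 microglia and 0 of 5 endothelial genes, where all protein-coding genes gave 41.0%. Input 3, matched to Chd8 by the labels, lay at an end of 5 of 8, 4 of 6, 5 of 6, 3 of 6, 1 of 5 and 2 of 5 genes of these lists, where all gave 45.2%. The part of other cells in the results was not tested.

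The promoter sequences that the main results turn on come first. RefSeq promoter windows (GRCm38.p6, the assembly of mm10) run from 250 bp upstream to 50 bp downstream of an annotated start, and 41 of the 48 genes had at least 1. No window was found in the table for Ash1l, Asxl3, Celf4, Grin2b, Nsd1, Shank2 and Wac. Windows of 3 kinds are shown, each 5′ to 3′ in the direction of the gene. The first set are windows covered by a reproducible Chd7 region: Ankrd11 (chr8:123042235-123042534, minus strand), Hdlbp (chr1:93478868-93479167, minus strand), Ilf2 (chr3:90475951-90476250, plus strand) and Tnrc6b (chr15:80711063-80711362, plus strand). The next set are windows under the highest Chd8 folds at an end: Adnp (chr2:168207063-168207362, minus strand), Phf12 (chr11:77982566-77982865, plus strand) and Tsc1 (chr2:28640983-28641282, plus strand). The last set belong to loci with no Chd7 or Chd8 peak: Gabrb2 (chr11:42420190-42420489, plus strand, the most upstream of its 3 windows), Tbr1 (chr2:61804203-61804502, plus strand) and Tlk2 (chr11:105178557-105178856, plus strand, the upstream one of its 2 windows). Capitals mark matches, on either strand, to the motifs named in the paragraphs that follow. A match on the opposite strand stands as its reverse complement, such as CCGCCC for GGGCGG.
Ankrd11: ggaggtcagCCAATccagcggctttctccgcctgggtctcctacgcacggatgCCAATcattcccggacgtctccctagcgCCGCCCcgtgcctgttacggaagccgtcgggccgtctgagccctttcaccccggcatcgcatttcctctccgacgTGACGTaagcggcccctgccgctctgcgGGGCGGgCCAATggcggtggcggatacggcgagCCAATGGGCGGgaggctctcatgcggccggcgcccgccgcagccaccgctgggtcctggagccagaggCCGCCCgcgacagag
Hdlbp: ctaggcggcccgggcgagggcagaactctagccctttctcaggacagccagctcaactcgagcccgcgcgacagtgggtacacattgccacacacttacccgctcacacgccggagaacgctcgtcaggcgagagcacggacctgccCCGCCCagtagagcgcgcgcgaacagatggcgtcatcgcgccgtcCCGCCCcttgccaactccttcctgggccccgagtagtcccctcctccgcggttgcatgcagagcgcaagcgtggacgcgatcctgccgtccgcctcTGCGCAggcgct
Ilf2: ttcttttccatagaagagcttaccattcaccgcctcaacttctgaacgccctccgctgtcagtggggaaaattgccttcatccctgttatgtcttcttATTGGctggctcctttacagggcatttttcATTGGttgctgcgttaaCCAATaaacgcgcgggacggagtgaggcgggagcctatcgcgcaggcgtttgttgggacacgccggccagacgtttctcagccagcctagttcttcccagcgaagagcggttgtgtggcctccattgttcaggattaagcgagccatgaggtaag
Tnrc6b: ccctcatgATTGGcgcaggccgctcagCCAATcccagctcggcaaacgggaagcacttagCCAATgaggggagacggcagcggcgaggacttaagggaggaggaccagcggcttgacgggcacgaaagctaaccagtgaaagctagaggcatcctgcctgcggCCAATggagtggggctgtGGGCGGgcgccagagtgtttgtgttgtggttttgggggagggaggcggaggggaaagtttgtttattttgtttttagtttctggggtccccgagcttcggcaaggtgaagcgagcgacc
Adnp: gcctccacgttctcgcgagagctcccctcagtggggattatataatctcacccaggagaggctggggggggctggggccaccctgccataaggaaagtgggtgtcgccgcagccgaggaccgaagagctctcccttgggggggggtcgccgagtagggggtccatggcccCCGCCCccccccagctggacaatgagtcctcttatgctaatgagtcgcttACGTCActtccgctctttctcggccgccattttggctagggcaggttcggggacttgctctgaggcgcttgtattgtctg
Phf12: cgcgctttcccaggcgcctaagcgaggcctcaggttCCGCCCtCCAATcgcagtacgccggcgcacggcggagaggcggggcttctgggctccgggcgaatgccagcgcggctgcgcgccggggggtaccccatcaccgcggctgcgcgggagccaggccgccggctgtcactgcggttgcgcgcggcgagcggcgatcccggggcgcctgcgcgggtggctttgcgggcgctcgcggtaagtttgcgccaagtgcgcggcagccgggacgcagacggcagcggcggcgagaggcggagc
Tsc1: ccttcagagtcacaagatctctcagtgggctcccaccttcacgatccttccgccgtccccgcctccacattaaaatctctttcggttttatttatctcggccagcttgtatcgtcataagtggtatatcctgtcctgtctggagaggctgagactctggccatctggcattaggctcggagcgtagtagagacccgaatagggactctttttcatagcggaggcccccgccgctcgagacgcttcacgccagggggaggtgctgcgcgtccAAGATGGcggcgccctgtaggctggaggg
Gabrb2: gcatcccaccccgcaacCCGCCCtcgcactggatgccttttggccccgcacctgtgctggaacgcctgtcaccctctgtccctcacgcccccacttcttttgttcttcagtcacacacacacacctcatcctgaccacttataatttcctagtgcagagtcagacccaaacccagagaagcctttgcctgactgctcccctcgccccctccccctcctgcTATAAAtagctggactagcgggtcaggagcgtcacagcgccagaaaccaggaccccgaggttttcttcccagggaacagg
Tbr1: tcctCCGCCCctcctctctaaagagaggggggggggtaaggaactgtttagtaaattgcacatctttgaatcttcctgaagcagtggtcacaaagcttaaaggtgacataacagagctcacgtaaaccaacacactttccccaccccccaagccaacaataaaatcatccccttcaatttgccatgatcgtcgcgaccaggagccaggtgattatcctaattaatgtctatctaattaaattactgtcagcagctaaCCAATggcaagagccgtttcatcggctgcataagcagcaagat
Tlk2: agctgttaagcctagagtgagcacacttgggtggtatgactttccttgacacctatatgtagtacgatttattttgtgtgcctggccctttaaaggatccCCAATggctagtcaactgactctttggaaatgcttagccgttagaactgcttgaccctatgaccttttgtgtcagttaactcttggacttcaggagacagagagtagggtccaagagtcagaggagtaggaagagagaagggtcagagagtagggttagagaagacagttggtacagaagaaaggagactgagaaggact

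The Ankrd11 window held 4 matches to the CCAAT box, 4 to the Sp or Klf box and 36 CG dinucleotides, and 1 of its CCAAT boxes adjoins an Sp or Klf box. Tnrc6b held 4 CCAAT boxes, 1 Sp or Klf box and 18 CG, and Ilf2 held 3 CCAAT boxes and 18 CG. The Hdlbp window printed held 2 Sp or Klf boxes, 1 Nrf1 core and 35 CG. Phf12 had 50 CG, Tsc1 20 and Adnp 17, beside 11 in the Gabrb2, 7 in the Tbr1 and 2 in the Tlk2 window printed. Windows without a peak were not all poor in CG: the other Tlk2 window held 29, and windows of Phf2, Med13l and Dyrk1a that touched no ChIP peak held 63, 61 and 54.

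Over all 67 windows of the 41 genes, the median was 18 CG, beside 13 over the 21263 windows of all protein-coding genes. Windows that touched a Chd8 peak had a median of 22.5 CG in the listed genes and 22.0 in all genes, and windows that did not had 13.0 and 6.0. The Sp or Klf box (GGGCGG) was found in 56.7% of the listed genes' windows and 46.2% of all windows, and the box spelled CCAAT in 35.8% and 38.2%. The CRE core (TGACGT) was found in 14.9% and 8.49%, the ETS core (CCGGAAG) in 5.97% and 11.6%, and the Nrf1 core (TGCGCA) in 2.99% and 9.74%. The E-box (CACGTG) was found in 8.96% and 7.84%, the YY1 core (AAGATGG) in 5.97% and 6.24%, and the box spelled TATAAA in 5.97% and 12.6%. Such matches describe letters in a window and show no binding. By these windows alone, a Chd8 peak touched 21 of 41 genes (51.2%, 35.1 to 67.1), where all genes with a window gave 37.6%, and a reproducible Chd7 region touched 4 of 41 (9.76%, 2.72 to 23.1), where all gave 4.88%.

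**Figure D1:**
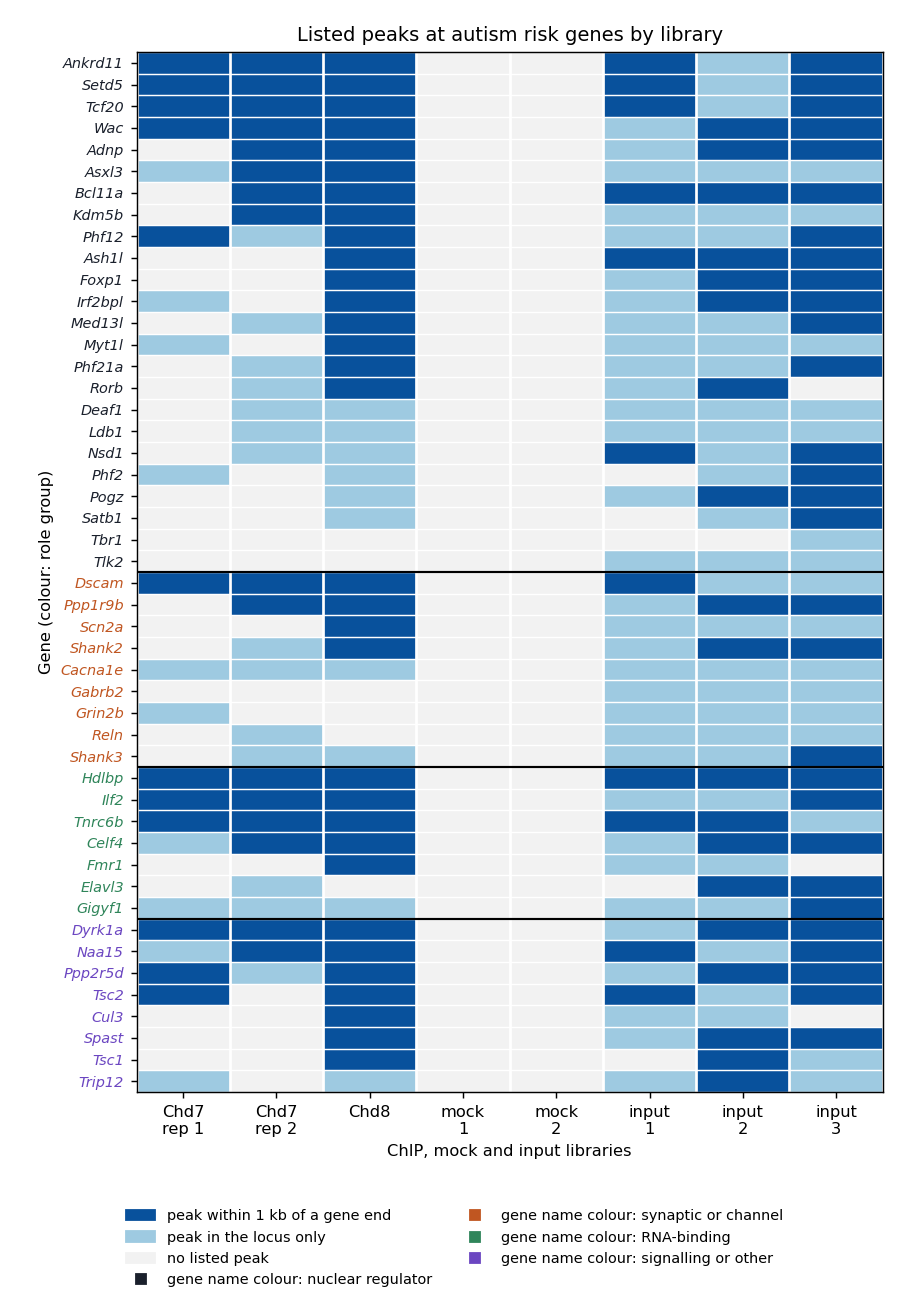
Presence of listed peaks at the 48 autism risk genes (rows, name colour by role) in each of the 8 libraries (columns); dark cells have a peak within 1 kb of a gene end, light cells a peak elsewhere in the locus, and grey cells none. Chd8 has 32 dark cells, Chd7 replicates 1 and 2 have 12 and 16, the mocks have 0, and input 3 has 29.

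The lists differ in length, and counts of genes follow it, so each is read against the share of all genes in the same list. Chd8 lay at an end of 32 genes (66.7%, 51.6 to 79.6), beside 41.0% of all protein-coding genes. Reproducible Chd7 regions lay at an end of 8 genes (16.7%, 7.48 to 30.2), beside 4.83% of all: Ankrd11, Setd5, Tcf20, Dscam, Hdlbp, Ilf2, Tnrc6b and Dyrk1a. Chd7 replicate 1 alone had a peak at 12 ends (25.0%, with 10.4% of all genes) and replicate 2 at 16 (33.3%, with 17.0%), and 19 genes had a peak of either (39.6%, with 22.0%). With the Chd8 list shortened to its 5218 peaks of highest fold, Chd8 lay at 15 ends (31.2%, with 18.0% of all genes), beside 12 for Chd7 replicate 1 with as many peaks and 16 for replicate 2 with 6237. At all 8 genes with a reproducible Chd7 region Chd8 was also present, so that 8 of the 32 Chd8 genes had both (25.0%, 11.5 to 43.4), where 11.7% of all Chd8 genes did. Over all genes, 1045 of the 1057 with a reproducible Chd7 region at an end also had Chd8 at an end, so this overlap is general.

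The controls differed in kind. Neither mock had a peak at an end of a listed gene or elsewhere in its locus, which allows up to 7.40% of genes by the exact interval; over all genes the mocks had 0.0183% and 0.0137% at ends and 0.151% and 0.142% at loci. Inputs 1, 2 and 3 had peaks at 11 (22.9%), 19 (39.6%) and 29 (60.4%) of the 48 ends, where all genes gave 21.9%, 28.4% and 45.2%. Input 3 was therefore listed at nearly as many of these ends as Chd8. Among the 29 genes with input 3 at an end, Chd8 lay at 22 (75.9%, 56.5 to 89.7), beside 66.3% of all such genes. Among the 19 genes without it, Chd8 lay at 10 (52.6%, 28.9 to 75.6), beside 20.1%: Asxl3, Cul3, Dscam, Fmr1, Kdm5b, Myt1l, Rorb, Scn2a, Tnrc6b and Tsc1. These ends were free of input 3 but not all of the other inputs. The Chd8 end peak touched input 1 at Dscam (3.90), inputs 1 and 2 at Tnrc6b (3.99 and 3.79), and input 2 at Rorb (3.88) and Tsc1 (3.91).

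**Figure D2:**
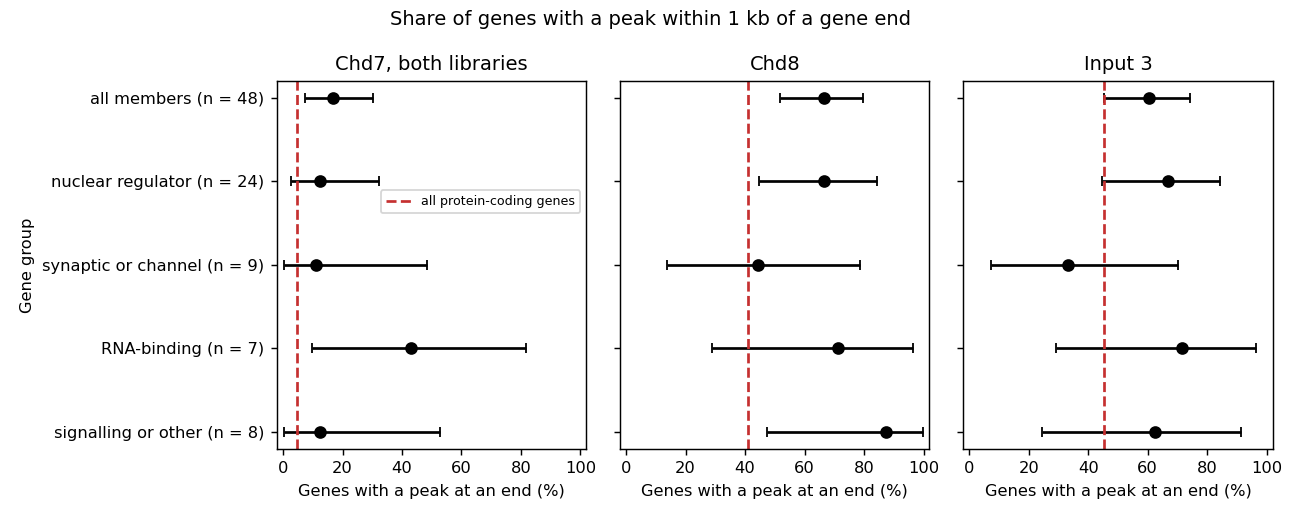
Percent of genes with a peak within 1 kb of a gene end (x axis) for reproducible Chd7 regions, Chd8 and input 3, by role group (y axis); points are shares with 95% Clopper-Pearson intervals, and the dashed line is the share of all protein-coding genes. For Chd8 the groups run from 44.4% of synaptic or channel genes to 87.5% of signalling or other genes, with wide intervals, and the line stands at 41.0%.

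By role, Chd8 was at an end of 16 of 24 nuclear regulators (66.7%, 44.7 to 84.4), 4 of 9 synaptic or channel genes (44.4%, 13.7 to 78.8), 5 of 7 RNA-binding genes (71.4%, 29.0 to 96.3) and 7 of 8 signalling or other genes (87.5%, 47.4 to 99.7). The synaptic or channel share was near the 41.0% of all genes, and the intervals of the groups overlap. Reproducible Chd7 regions were at 3 of 24, 1 of 9, 3 of 7 and 1 of 8 ends in the same order of groups. Other autism risk genes chosen as a comparison, among them the CHD-family remodelers Chd2, Chd3 and Chd8, gave like shares at ends. Chd8 lay at an end of 19 of 28 nuclear genes (67.9%) and 6 of 13 synaptic or channel genes (46.2%). At loci it was found at 28 of 28 and 12 of 13 (92.3%) of these, beside 22 of 24 (91.7%) and 6 of 9 (66.7%) of the listed groups and 56.9% of all genes. Reproducible Chd7 regions lay at an end of 3 of the 28 (Sin3a, Ski and Tcf4) and of 0 of the 13.

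Chd8 was found in 42 of the 48 loci (87.5%, 74.8 to 95.3), beside 56.9% of all loci. A reproducible Chd7 region was found in 10 (20.8%, 10.5 to 35.0), beside 8.45%, and replicates 1 and 2 alone were found in 22 (45.8%, with 21.4% of all) and 30 (62.5%, with 29.0%). Inputs 1, 2 and 3 had peaks in 43, 47 and 45 of the loci, beside 70.0%, 81.9% and 77.9% of all. With 5218 peaks Chd8 was found in 23 of the loci (47.9%, with 28.2% of all), beside the 45.8% (with 21.4%) of Chd7 replicate 1 and the 62.5% (with 29.0%) of replicate 2. The listed genes are long, and long loci more often held a peak. Among genes of at least 100 kb, Chd8 was found at 18 of 22 listed loci (81.8%, 59.7 to 94.8), beside 75.6% of all such loci, and reproducible Chd7 regions at 5 of 22 (22.7%, 7.82 to 45.4), beside 11.0%. Per 100 kb of locus the listed genes held 1.47 Chd8 peaks and all genes 1.53. The value was 1.75 in nuclear regulators, 0.880 in synaptic or channel genes, 1.82 in RNA-binding and 2.25 in signalling or other genes. A peak in overlapping loci was counted for each locus (22810 over all genes, from 18350 peaks). In short loci the ends and flanks also make up more of the span. These values therefore cannot tell whether peaks are denser at the listed genes.

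Among the nuclear regulators, 3 had a reproducible Chd7 region at the 5′ boundary of the gene, and at Ankrd11 alone this lay beside a start of the promoter table. At Ankrd11 (chr8:122883321-123042284, minus strand), which encodes an ankyrin-repeat protein that recruits histone deacetylases, the region spanned chr8:123042226-123042866 with a fold of 4.15 in Chd7 replicate 1 and 3.37 in replicate 2. The Chd8 peak there had a fold of 5.51, and inputs 1 and 3 had peaks of 3.68 and 3.67 under it. The Chd7 region covers the whole promoter window printed above, which is the most CG-rich of the first set.

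Setd5 (chr6:113077262-113153432, plus strand), a SET-domain protein of the histone methyltransferase family, had the widest of the 8 Chd7 regions, 1340 bp at chr6:113076084-113077423. The fold was 4.94 in Chd7 replicate 1, 3.50 in replicate 2 and 4.68 for Chd8, with inputs 1 and 3 at 3.93 and 3.83. The region lies at the outermost boundary of the gene, with its midpoint 28182 bp upstream of the only start in the promoter table. A second Chd7 replicate 2 peak (3.24) lay downstream within the same end window under a second Chd8 peak (4.23), and no input touched either.

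Tcf20 (chr15:82808447-82988103, minus strand), a transcriptional coregulator, had a narrow region of 210 bp at chr15:82987813-82988022. The fold was 4.18 in Chd7 replicate 1, 3.74 in replicate 2 and 5.29 for Chd8, and no input peak touched it. It lies just inside the outermost boundary of the gene, 75784 bp upstream of the only start in the promoter table. The regions of Tcf20 and Dscam were the only 2 of the 8 that touched no input peak.

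The highest Chd8 fold at an end of any listed gene was 10.9 at Adnp (chr2:168180965-168207112, minus strand), a homeodomain zinc-finger protein that binds the remodeler CHD4 and heterochromatin protein. That value lay above 99.6% of all genes with a Chd8 end peak. The peak at chr2:168207037-168207626 covered the printed window, Chd7 replicate 2 had a peak of 4.12 inside it, Chd7 replicate 1 had none in the locus, and inputs 2 and 3 had 3.76 and 4.63. A second Chd8 peak (6.75) lay 1671 bp inside the gene and touched no other list.

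Phf12 (chr11:77982733-78030539, plus strand), a PHD-finger subunit of Sin3 corepressor complexes, had a Chd8 fold of 9.73 at chr11:77981678-77983022, above 99.1% of Chd8 genes. No input touched that peak, Chd7 replicate 1 had 4.71 within it, and replicate 2 had a peak of 3.09 under a second Chd8 peak (4.24) that inputs 1 and 3 also touched. Kdm5b (chr1:134560178-134632878, plus strand), a demethylase of histone H3 lysine 4, had a Chd8 peak of 6.47 only 127 bp wide and centred 3 bp upstream of the start. Chd7 replicate 2 had 3.35 at the same place, replicate 1 had no peak in the locus and no input touched it. Phf12 and Kdm5b are thus the 2 of the 5 highest Chd8 genes whose top peak was free of input peaks.

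Wac, an adaptor of histone H2B ubiquitination, had a peak of each Chd7 library at its end (4.19 in replicate 1, 3.72 in replicate 2), but they did not overlap each other. Both lay under 1 Chd8 peak of 948 bp with a fold of 5.09, which touched peaks of input 2 (3.25) and input 3 (3.74). Chd7 replicate 2 alone was at the ends of Bcl11a (3.11), a zinc-finger repressor, and Asxl3 (3.24), a Polycomb-associated protein, both under Chd8 peaks (4.42 and 3.81). Input 2 (3.24) touched these peaks of Bcl11a, and no input touched those of Asxl3. The other nuclear regulators with Chd8 and no Chd7 at an end were Ash1l, a histone methyltransferase (6.32, at an end shared with Dap3), Myt1l, a neuronal zinc-finger factor (5.25, overlapping a Chd7 replicate 1 peak of 5.41 that itself lies just outside the 1 kb window), the forkhead factor Foxp1 (5.08), the nuclear receptor Rorb (4.98), Phf21a (4.92), Irf2bpl (4.36) and the Mediator kinase-module subunit Med13l (3.81). Of these peaks, Ash1l touched inputs 1 and 3, Foxp1 input 3, Rorb input 2 and Irf2bpl inputs 2 and 3. Those of Myt1l, Phf21a and Med13l touched no input peak.

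Chd8 lay in the locus but not at an end of 10 of the 48 genes (20.8%, 10.5 to 35.0), beside 15.9% of all genes, and 6 of these were nuclear regulators: Deaf1, Ldb1, Nsd1, Phf2, Pogz and Satb1. Pogz, a zinc-finger protein bound by HP1, had its highest Chd8 peak (7.43) 1136 bp downstream of its annotated start inside the outer boundary, with no Chd7 or input peak under it. Deaf1, a DNA-binding transcription factor, had a Chd8 peak of 7.16 with a Chd7 replicate 2 peak of 3.25 and input peaks of 3.52 (input 1) and 3.78 (input 3), 574 bp upstream of a start of its own and at an end of Tmem80. Ldb1, an adaptor of LIM-domain transcription factors, had 5.05 at the end of its neighbour Pprc1 and 4.76 beside its own start, where Chd7 replicate 2 had 3.49 and inputs 1, 2 and 3 had 3.80, 4.72 and 4.18. At Deaf1 and Ldb1 the start beside the peak thus lies inside the outermost boundary of the gene.

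For that reason starts of the promoter table were added to the gene ends, a choice made after the data were seen. Chd8 then lay at 38 of 48 genes (79.2%, 65.0 to 89.5), beside 44.2% of all genes; the genes gained were Cacna1e, Deaf1, Ldb1, Pogz, Satb1 and Trip12. Reproducible Chd7 regions remained at the same 8 genes (16.7%, beside 5.22%), while Chd7 replicate 1 had 13 (27.1%, beside 11.4%) and replicate 2 had 18 (37.5%, beside 18.5%). Nuclear regulators then had Chd8 at 20 of 24 (83.3%), synaptic or channel genes at 5 of 9 (55.6%) and signalling or other genes at 8 of 8, beside the same 44.2% of all genes. The RNA-binding genes gained none, and the synaptic or channel share was the nearest to that of all genes.

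**Figure D3:**
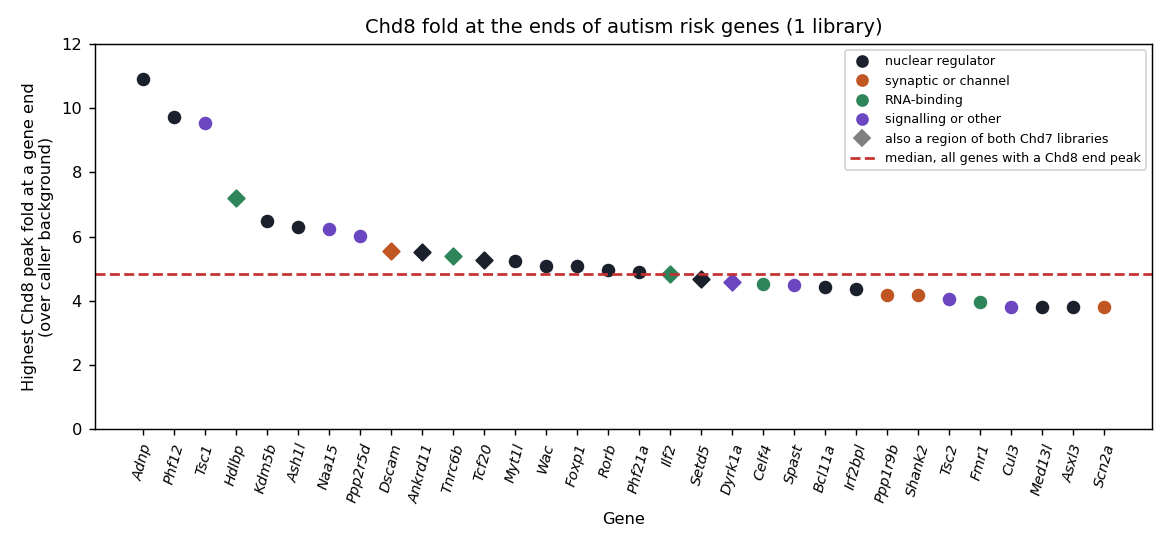
Highest fold of a Chd8 peak at a gene end (y axis, over the caller's background, 1 library) for the 32 listed genes that have one (x axis), coloured by role; diamonds also carry a reproducible Chd7 region, and the dashed line is the median of all genes with a Chd8 end peak. Adnp, Phf12 and Tsc1 stand apart at 10.9, 9.73 and 9.55, and the diamonds lie between 4.60 and 7.21.

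The median Chd8 fold at the 32 ends was 4.95, beside 4.85 over all 8966 genes with a Chd8 end peak, so that the listed genes had peaks of ordinary height. The plot of Chd8 fold by gene shows 3 genes far above the rest and a shallow slope after them. At the low end Asxl3, Cul3, Med13l and Scn2a had 3.81, the lowest fold that any gene with a Chd8 end peak had.

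Of the 9 synaptic or channel genes, 4 had Chd8 at an end, and 1 of these had Chd7 in both libraries. Dscam (chr16:96587452-97171113, minus strand) encodes a cell adhesion molecule of neurite self-avoidance. Its Chd7 region at chr16:97171533-97171956 had a fold of 4.48 in replicate 1 and 4.16 in replicate 2. The replicate 2 fold was the highest of the 8 regions in that library, while Setd5, Dyrk1a, Hdlbp, Tnrc6b and Ilf2 were higher in replicate 1. No input peak touched the Dscam region. The Chd8 peak there was 1284 bp wide with a fold of 5.57, and it reached an input 1 peak of 3.90 next to the Chd7 region.

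Ppp1r9b (chr11:94991212-95006898, plus strand), which encodes the dendritic spine scaffold spinophilin, had 2 Chd8 peaks at its start (4.19 and 3.81) and a Chd7 replicate 2 peak of 3.44 under the first. A higher Chd8 peak (5.06) that touched a Chd7 replicate 2 peak (3.72) lay 1436 bp upstream of the start, outside the 1 kb window. Chd7 replicate 1 had none, and no input touched these peaks, although inputs 2 and 3 had peaks elsewhere at its ends (3.56 and 3.61). Scn2a (chr2:65620764-65767447, plus strand), the sodium channel Nav1.2, had Chd8 at the lowest listed fold (3.81) at its outermost boundary and a peak of 4.09 centred 33 bp from an internal start. Neither Chd7 library had a peak in that locus, and no input touched the Chd8 peaks. Shank2 (chr7:143978077-144426043), a postsynaptic scaffold, had 4.18 for Chd8 at an end, with input 2 at 3.37 and input 3 at 3.55 under it; Chd7 replicate 2 had only a peak of 3.26 inside the gene. The Chd8 folds at these 4 ends ranged over 3.81 to 5.57 with a median of 4.18, and those at the 16 nuclear ends over 3.81 to 10.9 with a median of 5.09, so the groups overlapped.

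The remaining synaptic or channel genes had no Chd7 or Chd8 peak at an outer boundary. Cacna1e, a subunit of R-type calcium channels, had 5 Chd8 peaks in its locus, the highest (4.76) 839 bp upstream of its table start and free of input peaks. In its flank a Chd7 replicate 1 peak (4.62) touched another Chd8 peak (4.25), and a Chd7 replicate 2 peak (3.24) lay alone inside the gene. Shank3, the paralog of Shank2, had 1 Chd8 peak of 3.82 and 1 Chd7 replicate 2 peak of 3.15 inside the gene, which did not overlap and both touched an input 3 peak (3.38). Grin2b, a subunit of NMDA receptors, had 2 Chd7 replicate 1 peaks (4.32 and 4.48) and no Chd8 peak. Reln, which encodes the extracellular matrix protein reelin, had 1 Chd7 replicate 2 peak (3.32). Gabrb2, a GABA-A receptor subunit, had none in any ChIP list, whereas all 3 inputs had peaks within its locus.

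Of the 7 RNA-binding genes, 3 had a reproducible Chd7 region at the start and Chd8 with it. Hdlbp (chr1:93405940-93478917, minus strand), the KH-domain protein vigilin, had 4.68 in Chd7 replicate 1 and 3.60 in replicate 2 over chr1:93477954-93479210. Its Chd8 fold was 7.21, the fourth highest of the list, and inputs 1, 2 and 3 had peaks of 4.09, 4.01 and 4.53 at the same place. This is an end that Hdlbp shares with Septin2, so the peaks cannot be assigned to 1 of the genes.

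Ilf2 (chr3:90476201-90488379, plus strand), the NF45 subunit of a double-stranded RNA-binding complex, had 4.54 in Chd7 replicate 1 and 3.44 in replicate 2 over chr3:90475818-90476558. Chd8 had 4.84 there, and of the inputs only input 3 touched it (3.48). Tnrc6b (chr15:80711313-80941086, plus strand), a scaffold of microRNA silencing, had 4.58 in replicate 1 and 3.62 in replicate 2 over chr15:80711026-80711458, with Chd8 at 5.39 and inputs 1 and 2 at 3.99 and 3.79. At a second start, Tnrc6b had a higher Chd8 peak (8.22) with Chd7 replicate 1 (4.84) and no input peak. All 3 genes have their Chd7 region on a promoter window printed above.

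Among the other RNA-binding genes, Fmr1, the fragile X protein FMRP, had a single Chd8 peak of 3.96 with no Chd7 and no input peak under it. Celf4, a neuronal splicing and mRNA stability factor, had 3 Chd8 peaks at an end (highest 4.54, touching input 2 at 4.05) and a Chd7 replicate 2 peak of 3.17. Elavl3, the neuronal protein HuC, had no Chd8 peak and 1 Chd7 replicate 2 peak of 3.18 inside the gene. Gigyf1, a translational repressor of the 4EHP complex, had a reproducible Chd7 region (4.88 in replicate 1, 4.58 in replicate 2) and a Chd8 peak of 14.05 in its locus, but these lie at the end of its neighbour Gnb2, a G protein subunit gene, where input 3 had 3.65.

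Of the 8 signalling or other genes, Dyrk1a (chr16:94569947-94695519, plus strand), a dual-specificity kinase, had the only reproducible Chd7 region at an end, 300 bp at chr16:94569430-94569729. The fold was 4.89 in Chd7 replicate 1, 3.39 in replicate 2 and 4.60 for Chd8, and inputs 2 and 3 had 3.23 and 3.45 there. A Chd7 replicate 1 peak (4.48) under a Chd8 peak (3.81) also lay inside the gene, 17.5 kb downstream of an annotated start.

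Tsc1 and Tsc2 encode the partners of the tuberous sclerosis complex, which restrains mTOR signalling, and their peaks differed. Tsc1 (chr2:28640993-28691172, plus strand) had a Chd8 fold of 9.55, above 99.0% of Chd8 genes, on the start at chr2:28640923-28641763, with no Chd7 peak in the locus and input 2 at 3.91. Tsc2 had Chd8 at 4.07 and Chd7 replicate 1 at 4.40 on an end that it shares with the repair gene Nthl1, with input 3 at 3.43. Of the pair, the gene with the higher Chd8 fold was thus the one without Chd7.

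The phosphatase subunit gene Ppp2r5d had 6.03 for Chd8 and 5.94 for Chd7 replicate 1, the highest Chd7 replicate 1 fold at an end of a listed gene, with inputs 2 and 3 at 3.32 and 4.06 and no replicate 2 peak there. Naa15, a subunit of the N-terminal acetyltransferase NatA, had 6.23 for Chd8 and 3.24 for Chd7 replicate 2, with inputs 1 and 3 at 3.53 and 3.655. Spast, the microtubule-severing protein spastin, had Chd8 (4.50) over an input 3 peak (3.42), and Cul3, a ubiquitin ligase scaffold, had Chd8 (3.81) with no input peak; neither had Chd7 in the locus. Trip12, a ubiquitin ligase, had the highest Chd8 fold of all listed loci, 14.8, with Chd7 replicate 1 at 4.53 and inputs 2 and 3 at 3.94 and 3.63, at chr1:84839210-84840464. That peak lies inside the outer boundary of Trip12, 533 bp upstream of its table start, and at an end of Fbxo36.

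**Figure D4:**
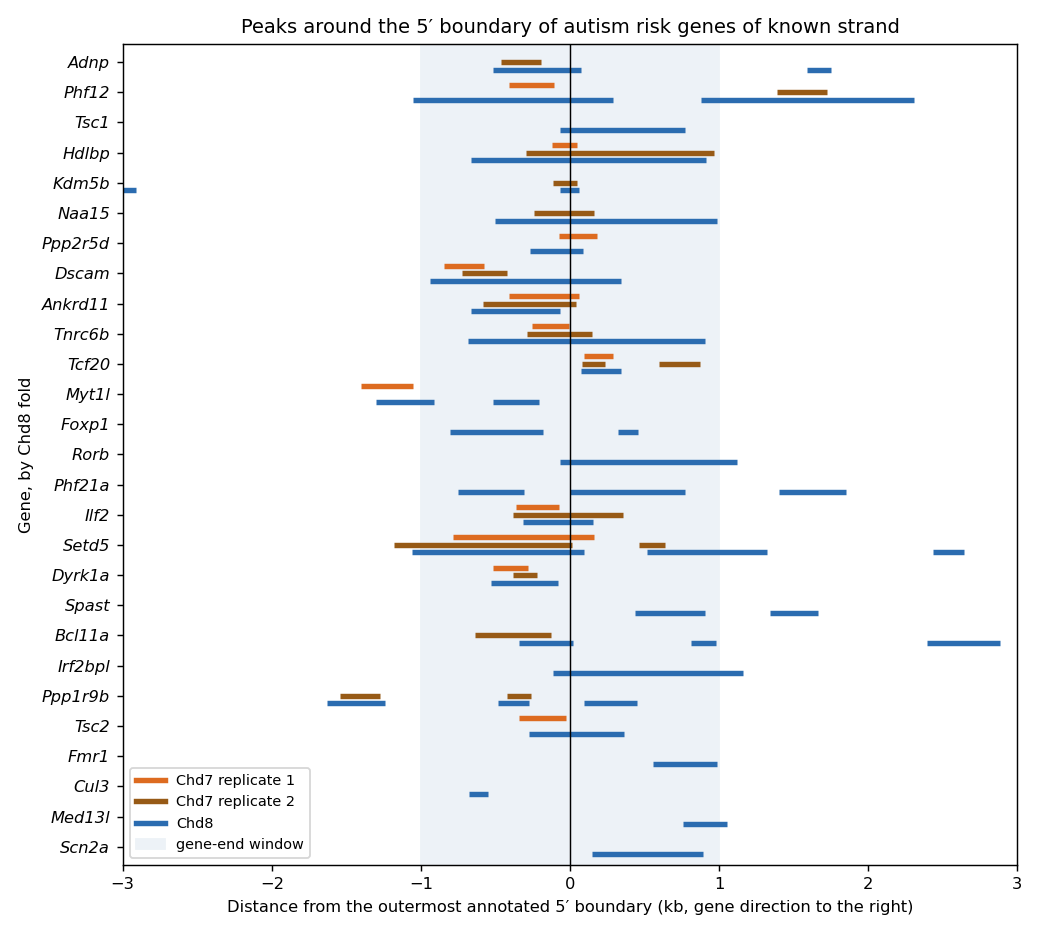
Chd7 replicate 1, Chd7 replicate 2 and Chd8 peaks drawn as bars by distance from the outermost 5′ boundary (x axis, kb, gene direction to the right) for the 27 listed genes of known strand with a Chd8 end peak (y axis, ordered by Chd8 fold); the shaded band is the 1 kb window. In all 8 genes with a reproducible Chd7 region the bars of both Chd7 libraries overlap each other and a Chd8 bar.

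Peaks at ends lay at the 5′ side. Strand is known from the promoter table for 41 of the 48 genes, and the end peak lay only at the 5′ boundary in 27 of 27 of these genes for Chd8, 8 of 8 for reproducible Chd7 regions, 11 of 11 for Chd7 replicate 1 and 13 of 13 for replicate 2. Over all genes of known strand these shares were 92.8%, 94.3%, 92.7% and 93.3%. Inputs were less one-sided: 8 of 9, 13 of 15 and 18 of 24 listed genes had the peak only at the 5′ boundary for inputs 1, 2 and 3, beside 80.7%, 74.3% and 74.6% of all genes. The plot of peaks around the 5′ boundaries shows that many Chd8 peaks span the boundary itself.

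Chd7 and Chd8 peaks coincided at these loci. All 11 reproducible Chd7 regions of the listed loci touched a Chd8 peak, beside 97.1% of such regions over the genome. Of single-library peaks, 30 of 35 (85.7%) of Chd7 replicate 1 and 33 of 46 (71.7%) of replicate 2 did, beside 78.8% and 62.2%. The 3 regions away from a listed end all lay at ends of neighbours, namely Gnb2 beside Gigyf1, Snapin beside Ilf2 and Rab33b beside Naa15. Folds in Chd7 replicates 1 and 2 were 4.29 and 4.06 at Snapin, and 4.63 and 3.805 at Rab33b. The other regions lay within 1 kb of a listed gene's own boundary, and none lay farther inside a listed gene.

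By place, the 121 Chd8 peaks of the 48 loci comprised 34 within 1 kb of the 5′ boundary, 7 at an end of a gene of unknown strand, 60 farther inside a gene and 20 in the flanks. Chd7 replicate 1 had 11, 1, 14 and 9 peaks in these places, and replicate 2 had 15, 3, 18 and 10. Input 3 touched 19 of the 41 Chd8 peaks at ends (46.3%) and 16 of the 60 inside genes (26.7%), beside 40.3% of all Chd8 peaks, and input 2 touched 14 (34.1%) and 4 (6.67%), beside 17.9%. Input 1 touched 4 of 12 Chd7 replicate 1 peaks at ends (33.3%) and 0 of 14 inside genes, beside 15.2% of all. For Chd7 replicate 2 and input 2 the places were closer, with 5 of 18 at ends (27.8%) and 4 of 18 inside (22.2%), beside 32.8% of all. These differences between places were not tested.

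**Figure D5:**
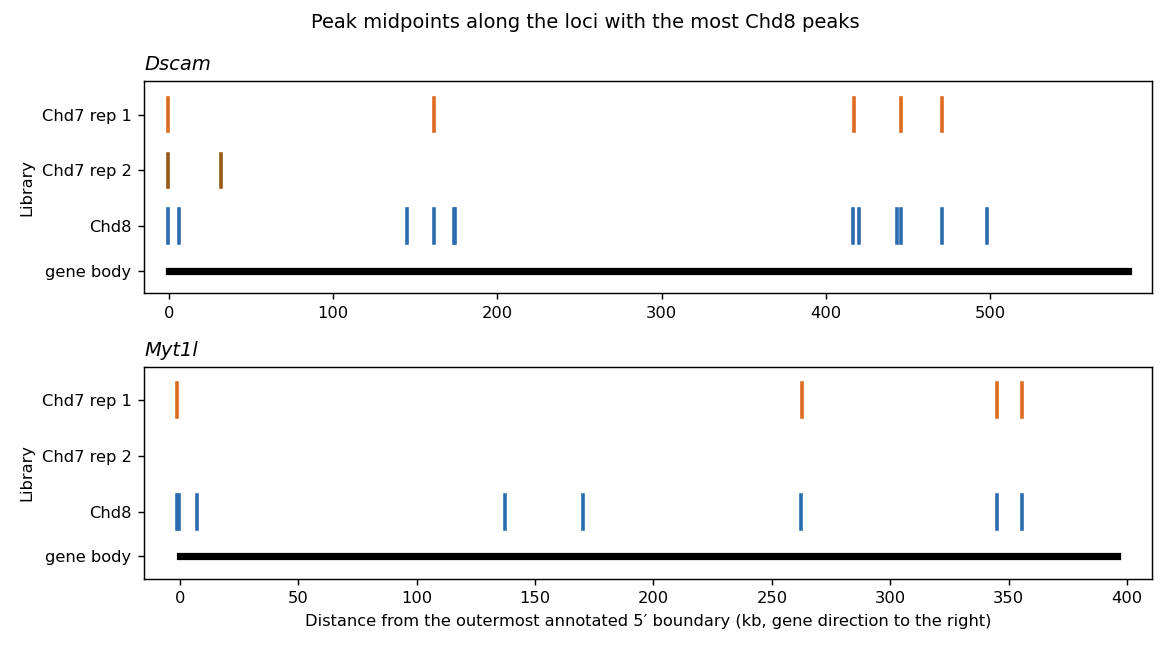
Midpoints of Chd7 replicate 1, Chd7 replicate 2 and Chd8 peaks (rows) along Dscam and Myt1l, the listed loci with the most Chd8 peaks, by distance from the outermost 5′ boundary (x axis, kb, gene direction to the right); the black bar is the gene body. Chd8 marks 12 places in Dscam and 8 in Myt1l, and every Chd7 replicate 1 mark stands at a Chd8 mark, while Chd7 replicate 2 has 2 in Dscam and 0 in Myt1l.

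Dscam and Myt1l held the most Chd8 peaks, 12 and 8. In Dscam 4 Chd7 replicate 1 peaks lay inside the gene, with folds of 4.24, 4.41, 4.71 and 5.02, and each touched a Chd8 peak (3.99, 4.23, 5.77 and 5.18). None of these 8 peaks touched an input peak. The only Chd7 replicate 2 peak inside Dscam (3.55) lay elsewhere and touched no Chd8 peak. In Myt1l all 4 Chd7 replicate 1 peaks of the locus, with folds of 4.57 to 5.71, touched a Chd8 peak, and replicate 2 had none. Of these 4 sites, 2 of the 3 inside the gene also touched an input 3 peak (3.30 and 3.51). The internal sites of these loci therefore rest on 1 Chd7 library and 1 Chd8 library.

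No Chd7 or Chd8 peak was found in the loci of Tbr1, Tlk2 and Gabrb2, 3 of 48 genes (6.25%, 1.31 to 17.2), beside 40.1% of all genes. The 2 shares are of genes unlike in length, with medians of 86.6 kb and 17.2 kb. Chd8 was found at 75.6% of all loci of genes of at least 100 kb, beside 56.9% of all loci. The share of loci without a peak was not compared at matched length. Tbr1 is a transcription factor of cortical projection neurons, and Tlk2 is a kinase of chromatin assembly. Input 3 was the only library with a peak at the Tbr1 locus.

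Most stricter rules lowered both counts, and the listed genes' shares stood above those of all genes under each of them except where Chd7 was at 0. The rules filter the same peak lists, and the genes were chosen with earlier results of these data known. These shares are therefore no independent support. With peaks of the matching input removed, Chd8 remained at 19 ends (39.6%, where all genes then gave 16.7%) and reproducible Chd7 at 3, Dscam, Ilf2 and Tcf20 (6.25%, with 1.75%). The track names inside the files number Chd7 replicate 2 and Chd8 otherwise than the titles, and with inputs 2 and 3 exchanged accordingly the counts were 21 (43.8%, with 29.1%) and 2 (4.17%, with 0.758%). With peaks of any input removed they were 14 (29.2%, with 13.1%) and 2, Dscam and Tcf20 (4.17%, with 0.539%). With a fold of at least 5 Chd8 was at 15 ends (31.2%, with 17.8%) and Chd7 at 0 (with 0.0137%), and with a −log10 q of at least 5 at 8 (16.7%, with 8.28%) and 0 (with 0%). With each library cut to its 5218 peaks of highest fold, Chd8 was at 15 ends (31.2%, with 18.0%) and Chd7 at 8 (16.7%, with 4.26%). That rule left 1203 reproducible Chd7 regions and did not shorten Chd7 replicate 1, so the 2 counts do not come from lists of equal length. A reciprocal overlap of 50% left Chd7 at 4 (8.33%, with 1.72%).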

How the data were processed

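The deposited peak lists, 1 for each of the 8 libraries, were made by the authors on mm10 with Bowtie2, SAMtools, Picard and MACS, per the submitters' processing notes; versions, settings, calling controls and later filters were not given in the sources used here. Per the file headers they are broadPeak lists: the authors deposited for each peak a score (about 10 times the −log10 q), a fold ratio over the caller's background, and −log10 p and −log10 q values. No read counts were used, so depth is unknown. The labels name anti-Chd7 and anti-Chd8 antibodies and rabbit IgG, while the extraction notes name an O4 antibody.

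Peaks that touched a mock peak by at least 1 bp were removed. Genes came from a RefSeq table and promoters from RefSeq windows (GRCm38.p6), which give no exons, so only gene boundaries and starts were annotated. Counts of genes are described with 95% Clopper-Pearson intervals, and no test was made, since Chd8 had 1 library and Chd7 2. The scripts used Python 3.11.15, numpy 2.4.6, pandas 2.3.3 and scipy 1.17.1. Their overlap, gene-end, locus and merging steps were tested on simulated intervals, and the other steps were not. The genes and lists were chosen with earlier results of these data known.

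Genes named with the values of every library were those with a reproducible Chd7 region at an end, the 5 highest Chd8 folds at an end, synaptic or channel genes with a ChIP peak at an end, and the 5 highest Chd8 folds among loci without one at an end. Alternatives were peak thresholds, removal of input peaks, stricter overlap, equal list lengths, other windows, retained mock peaks and leaving out each Chd7 library.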

Additional observations from a re-analysis of the deposited data

How the results depend on the processing

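No paired analysis was possible because the results come from no test. Of 82 alternative values, 38 stayed within 1.5 times the count reported and 44 moved. The cause was not tested. Chd8 at ends of the 48 genes (32) fell to 8 with a −log10 q of at least 5, to 15 with a fold of at least 5 or equal numbers of peaks, to 19 with the matching input removed, to 21 with inputs 2 and 3 exchanged and to 14 with any input removed. Chd8 at loci (42) was 15 with that q (13.2% of all genes) and 23 with that fold (28.0%) or equal numbers (28.2%). Reproducible Chd7 at ends (8) was 0 with that q or fold, 3 with the matching input removed, 4 with a reciprocal overlap of 50%, and 2 with the inputs exchanged or every input's peaks removed; without replicate 1 or 2, single-library peaks lay at 12 to 16 ends. Reproducible Chd7 at loci (10) was 0 with that q (0.00914% of all genes) or fold (0.0503%), 6 without flanks (5.82%), 4 with the matching input removed (3.70%) or reciprocal overlap (3.37%), 2 with the inputs exchanged (1.97%) or any input removed (1.57%), and 22 to 30 with 1 library (21.4% to 29.0%).

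Nuclear regulators with Chd8 at an end (16) were 4 with that q (16.7%, with 8.28% of all genes). They were 9 (37.5%) with that fold (17.8% of all), equal numbers (18.0%) or any input removed (13.1%). Those with Chd7 (3) were 0 with that q (0% of all) or fold (0.0137%) and 1 under each input rule (4.17%, with 0.539% to 1.75%). With 1 library they were 5 to 8 (20.8% to 33.3%, with 10.4% to 17.0%). Synaptic or channel genes with Chd8 (4) were 0 with that q (8.28% of all genes) and 2 with any input removed (22.2%, with 13.1% of all). They were 1 with that fold (11.1%, with 17.8%) or equal numbers (11.1%, with 18.0%). Under the q, fold and equal-number rules this group thus stood below all genes. Those with Chd7 (1) were 0 with that q (0% of all), that fold (0.0137%) or reciprocal overlap (1.72%). With 1 library they were 1 to 2 (11.1% to 22.2%, with 10.4% to 17.0%). Keeping peaks that touch a mock peak changed none of these counts. Unknown depth, a single Chd8 library and unstated calling controls limit what an absent peak shows.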
